A study of Homo sapiens with 14 samples.

Results

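The genes described here are 10 genes known to be transcribed more when fibroblast growth factor (FGF) receptors activate the kinase ERK, namely the ETS transcription factor genes ETV1, ETV4 and ETV5, the Sprouty genes SPRY1, SPRY2 and SPRY4, the Sprouty-related genes SPRED1 and SPRED2, the phosphatase gene DUSP6, and PHLDA1. They were taken by symbol from a table of read counts for 26485 genes and followed across all 7 groups of the study. All 10 passed the filter on low counts and were among the 16149 genes tested. Messenger RNA came from WA01 cells, a human embryonic stem cell line also known as H1, and from the same line after 5 days of induction towards neural crest, the embryonic cell population that gives rise to peripheral neurons, pigment cells and much of the facial skeleton. Induced cultures received the GSK3 inhibitor CHIR99021, which activates canonical Wnt signaling, from hour 0 to hour 72, at 10 µM (high Wnt) or 3 µM (low Wnt). From hour 0 to hour 120 some of them also received TGF-beta 1 (TGFB, 5 ng/µL as the labels write the dose) or 10 µM SB431542 (SB4), a blocker of the TGF-beta, activin and nodal type I receptors. The groups were thus high Wnt + TGFB, high Wnt + SB4, high Wnt, low Wnt + TGFB, low Wnt + SB4, low Wnt and the uninduced cells (hESC), with 2 libraries in each and 14 in all. All came from 1 cell line, and nothing in the labels tells whether paired libraries were grown as separate cultures, so p-values measure the spread between libraries, which may be technical.

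FGFs bind receptor tyrosine kinases at the cell surface and, through the adaptor FRS2 and the RAS, RAF and MEK relay, lead to phosphorylation of ERK. Active ERK relieves repression by the DNA-binding protein Capicua (CIC) and drives transcription of the ETV factors, which carry part of the response, and of proteins that damp it. Sprouty and SPRED proteins act upstream of ERK on the RAS and RAF steps, and DUSP6 removes the activating phosphates from ERK itself in the cytoplasm. In vertebrate embryos FGF signaling acts with Wnt signaling in the induction of the neural crest and in the growing tail end of the embryo, where these genes are common readouts of FGF activity.

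Levels are counts per 1000000 counts (CPM), scaled by TMM factors, and a gene was called changed when its adjusted p was under 0.05 in the quasi-likelihood test of edgeR, with adjustment after Benjamini and Hochberg over all genes tested. Library totals ran from 10879287 to 19106827 counts, so that 3 counts, the most that an observed 0 allows, stood for 0.157 to 0.269 CPM. Such floors cover counting error only. Between replicate libraries, log2 CPM correlated across genes at 0.988 to 0.992. The markers of the labelled cell types were not evenly present. TFAP2A, a crest specifier, averaged 0.0755 CPM in high Wnt + TGFB, 0.139 CPM in high Wnt + SB4 and 0.117 CPM in high Wnt, against 15.5 CPM in low Wnt + TGFB, 3.16 CPM in low Wnt + SB4, 3.50 CPM in low Wnt and 0.153 CPM in hESC. SOX10, a marker of migrating crest, averaged at most 6.34 CPM in any induced group and 5.63 CPM in hESC. PAX3, which marks crest but also neural tube and somite, averaged 253 CPM in high Wnt + TGFB, 237 CPM in high Wnt + SB4 and 173 CPM in high Wnt, against a mean of at most 17 CPM in the other groups. SNAI2, also a crest marker, averaged 25.7 CPM in high Wnt + TGFB, 66.6 CPM in high Wnt + SB4 and 41.7 CPM in high Wnt. It averaged 17.8 CPM in low Wnt + TGFB, 28.6 CPM in low Wnt + SB4, 18.4 CPM in low Wnt and 0.868 CPM in hESC. FOXD3 averaged 36.5 CPM in hESC and at most 8.54 CPM in any induced group. TFAP2B averaged at most 0.0318 CPM in the high Wnt groups and 2.43 to 4.38 CPM in the low Wnt groups. The measured tailbud and somite markers TBX6, MSGN1 and MEOX1 together summed to 54.7 to 253 CPM per library in the high Wnt groups, against 2.26 to 4.89 CPM in all other libraries. MEOX1, a somite gene, made up most of the high Wnt sums, averaging 221 CPM in high Wnt + TGFB, 54.3 CPM in high Wnt + SB4 and 73.6 CPM in high Wnt. TBX6 averaged 18.1, 6.14 and 21.4 CPM in these groups and at most 4.40 CPM elsewhere. MSGN1 averaged at most 1.73 CPM in any group. GATA1, a blood marker, had 0 counts in every group. With the endothelial markers PECAM1 and CDH5 added, the sum was 0.334 to 1.43 CPM per library.

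RefSeq promoter windows, each of 300 bases from 250 before a start site to 50 after it, were held in the reference table for 8 of the 10 genes, in 17 windows (GRCh38.p14). They were searched on both strands for the 4 octamers bound by CIC (TGAATGAA, TGAATGGA, TCAATGAA and TCAATGGA), for the ETS letters CCGGAA and the longer CCGGAAGT that contains them, for the TCF/LEF letters CTTTGAA and CTTTGAT, and for the AP-1 letters TGACTCA, the CRE letters TGACGTCA and the SMAD palindrome GTCTAGAC. The motifs were chosen with the values below known. The sequences below are shown because they hold letters recognised by the repressor that ERK switches off, by the ETS family to which the ETV factors belong, or by the factors through which Wnt signaling acts. Each is written 5′ to 3′ along the gene's own strand, with the matched letters in capitals.
ETV1, chr7:13991426-13991675, minus strand, the 250 bases before the start site, with CCGGAA and the CIC octamer TGAATGGA: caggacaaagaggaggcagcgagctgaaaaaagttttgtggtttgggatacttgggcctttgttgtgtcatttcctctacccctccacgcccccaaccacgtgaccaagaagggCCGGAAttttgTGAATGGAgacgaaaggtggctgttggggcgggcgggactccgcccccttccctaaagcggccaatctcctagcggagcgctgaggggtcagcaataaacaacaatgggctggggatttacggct
DUSP6, chr12:89352507-89352536, minus strand, with the reverse complement of the CIC octamer TCAATGGA: cggagaatgtaTCCATTGAgacgctcgctg
DUSP6, chr12:89352482-89352511, minus strand, with the same octamer again: cgctgtttgtaTCCATTGAggagctgcctc
SPRY2, chr13:80339663-80339692, minus strand, with the reverse complement of CTTTGAA: ttaatgggggtTTCAAAGcactttcaaagg
SPRY2, chr13:80339652-80339681, minus strand, overlapping the stretch above, with the next copy of the same letters: ttcaaagcactTTCAAAGgggaggggggac

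The ETV1 octamer began 125 bases before the start site, and TGAATGGA was held by 1.03% of all 35116 promoter windows of that length. In DUSP6 the first base of TCCATTGA lay 24 bases before the start in the upstream copy and 1 base after it in the downstream copy, and TCAATGGA on either strand was held by 0.510% of all windows. The DUSP6 window lies inside the gene as the count table draws it, whose upstream end is at 89352859. CCGGAA was present in 6 of the 17 windows, from ETV1, PHLDA1, SPRY1 and SPRY2, and in 17.2% of all windows; ETV1 windows overlap, so that 1 site was counted in more than 1 of them. CTTTGAA was present in 1 of the SPRY2 windows, 22 and 11 bases before that start, and in 4.43% of all windows. That SPRY2 window too lies inside the gene as counted, whose upstream end is at 80340951. SPRED2 held TGACTCA in 1 window, also inside the gene, against 4.95% of all. A match of letters is a description of sequence and not a measurement of binding.

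Most of these genes stood higher at the high dose of CHIR99021. Of the 10 genes, 8 were higher in high Wnt than in low Wnt, PHLDA1 was lower and SPRED1 was not called, while 38.5% of all genes tested were called in either direction, 19.4% higher and 19.1% lower. The median log2 fold change was 2.83 over the 10 genes and -0.01 over all genes tested. With SB4 at both doses all 10 were higher in high Wnt + SB4 than in low Wnt + SB4 (30.1% of all genes called, 15.3% higher). With TGFB at both doses 6 were higher in high Wnt + TGFB than in low Wnt + TGFB, 2 were lower and 2 were not called (46.3% called, 22.8% higher and 23.5% lower), and 4 of the 10 were called when a log2 fold change of at least 1 was also asked for (20.4% of all genes). ETV1, ETV5, SPRY1, SPRY2, SPRED2 and DUSP6 were the 6 genes higher in all 3 of these comparisons, which share no library; 8.27% of all genes tested were. In bulk RNA, a change in the share of cells that express a gene and a change in RNA per cell cannot be told apart. The high Wnt groups also carried the tailbud and somite markers given above, and low Wnt the neural plate genes SOX1, PAX6 and OTX2, which together summed to 7.23 and 8.53 CPM in the high Wnt libraries and to 248 and 246 CPM in the low Wnt libraries. Their part in the dose differences was not tested.

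**Figure D1:**
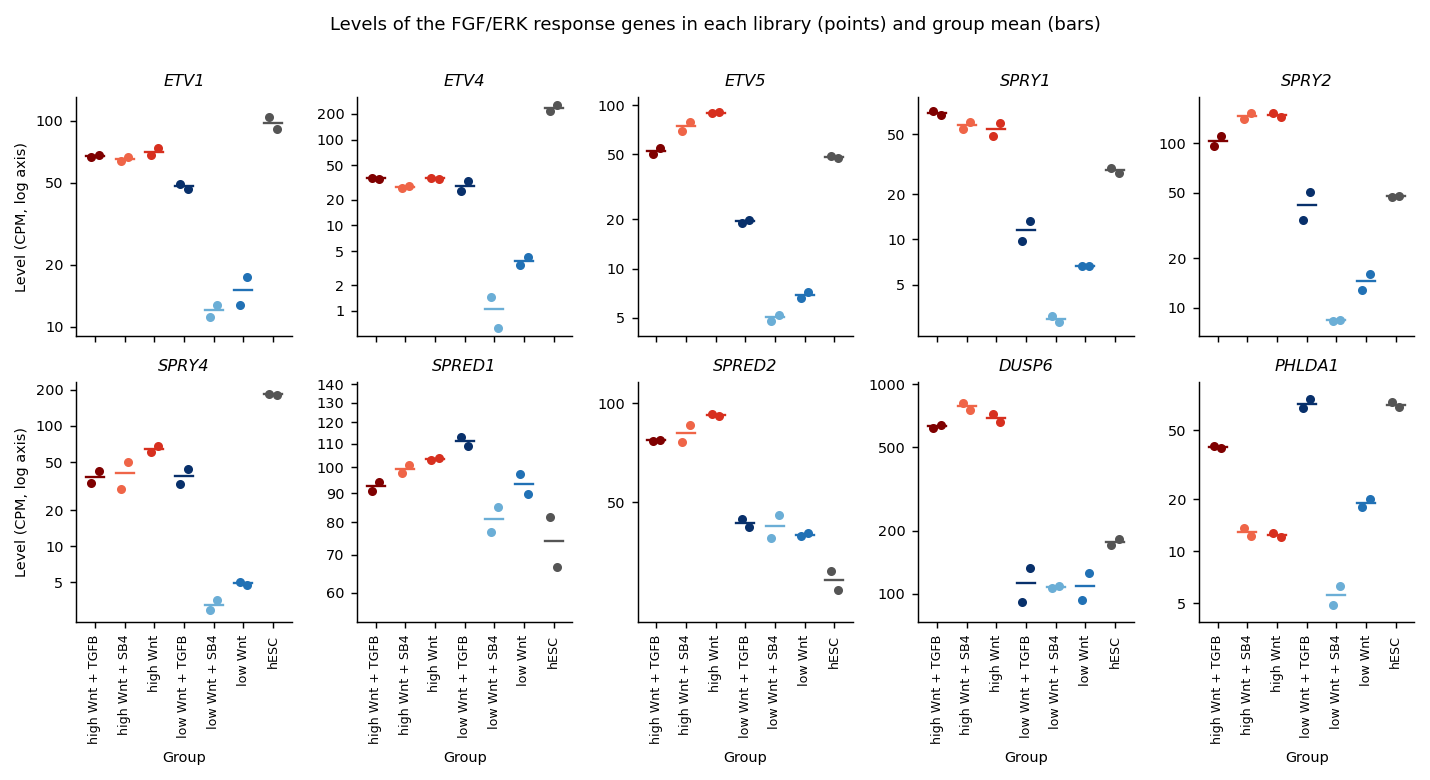
Level of each of the 10 genes in CPM on a log axis with its own range per panel, for 7 groups on the horizontal axis; each point is 1 library and each short bar the mean of 2. The low Wnt + SB4 mean is the lowest for 8 genes, though for ETV1, ETV5, SPRY4 and DUSP6 it was not called different from low Wnt. DUSP6 splits into 3 high Wnt groups between 617 and 816 CPM and all other libraries at or below 182 CPM.

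Among the transcription factors, ETV5 gave the clearest step with dose. ETV5 (chromosome 3, 186046317 to 186109112, minus strand, hg38) had 49.9 and 54.6 CPM in high Wnt + TGFB, 69.6 and 78.7 CPM in high Wnt + SB4, 89.1 and 90.1 CPM in high Wnt, 19.1 and 19.9 in low Wnt + TGFB, 4.81 and 5.24 CPM in low Wnt + SB4, 6.58 and 7.17 CPM in low Wnt, and 49.1 and 47.8 CPM in hESC. Every high Wnt library lay above every low Wnt library, with hESC between them and just below high Wnt + TGFB. ETV5 was 13-fold higher in high Wnt than in low Wnt (log2 fold change 3.70 ± 0.124 SE, edgeR adjusted p = 5.81e-13), 14.7-fold higher with SB4 at both doses and 2.68-fold higher with TGFB at both doses. ETV4 (chromosome 17, 43527843 to 43546432, minus strand), the family member most abundant per length in stem cells, had 35.6 and 35.0 CPM in high Wnt + TGFB, 27.2 and 28.7 CPM in high Wnt + SB4, 36.1 and 34.8 CPM in high Wnt, 25.0 and 32.6 in low Wnt + TGFB, 1.46 and 0.629 CPM in low Wnt + SB4, 3.47 and 4.24 CPM in low Wnt, and 217 and 255 CPM in hESC. The hESC libraries stood far above the rest, low Wnt + TGFB lay beside the high Wnt groups, and the low Wnt + SB4 libraries rested on 24 and 12 counts. ETV4 rose 9.16-fold with dose (log2 3.19 ± 0.191, edgeR adjusted p = 6.94e-10). ETV4 rose 27.3-fold with SB4 at both doses (log2 4.77, or 4.24 to 5.46 with each library left out, highest without low Wnt + SB4 replicate 1, which had 24 counts). With TGFB at both doses its log2 fold change was 0.29 (95% interval -0.04 to 0.62, edgeR adjusted p = 0.139), and it passed the threshold when low Wnt + TGFB replicate 2 was left out (0.50, adjusted p = 0.0414). ETV1 (chromosome 7, 13891231 to 13991425, minus strand) had 67.0 and 68.1 CPM in high Wnt + TGFB, 63.9 and 66.6 CPM in high Wnt + SB4, 68.2 and 73.6 CPM in high Wnt, 49.6 and 46.9 in low Wnt + TGFB, 11.2 and 12.8 CPM in low Wnt + SB4, 12.7 and 17.4 CPM in low Wnt, and 105 and 91.1 CPM in hESC. The high Wnt groups lay together irrespective of additive, and low Wnt with and without SB4 overlapped at the bottom. ETV1 rose 4.70-fold with dose (log2 2.23 ± 0.136, edgeR adjusted p = 8.75e-10), 5.43-fold with SB4 at both doses and 1.40-fold with TGFB at both doses.

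The Sprouty genes encode intracellular inhibitors of receptor tyrosine kinase signaling and followed the ETV genes in the dose comparison. SPRY2 (chromosome 13, 80335977 to 80340951, minus strand) had 96.8 and 111 CPM in high Wnt + TGFB, 140 and 154 CPM in high Wnt + SB4, 152 and 145 CPM in high Wnt, 34.2 and 50.3 in low Wnt + TGFB, 8.35 and 8.38 CPM in low Wnt + SB4, 12.8 and 16.1 CPM in low Wnt, and 47.1 and 48.0 CPM in hESC. All high Wnt libraries exceeded all others, and hESC fell within the range of low Wnt + TGFB. SPRY2 was 10.3-fold higher in high Wnt than in low Wnt (log2 3.36 ± 0.161, edgeR adjusted p = 4.31e-11), 17.6-fold with SB4 and 2.45-fold with TGFB at both doses. SPRY4 (chromosome 5, 142310427 to 142325055, minus strand) had 33.6 and 42.1 CPM in high Wnt + TGFB, 30.1 and 50.5 CPM in high Wnt + SB4, 61.1 and 68.8 CPM in high Wnt, 33.2 and 44.1 in low Wnt + TGFB, 2.93 and 3.56 CPM in low Wnt + SB4, 5.05 and 4.78 CPM in low Wnt, and 185 and 182 CPM in hESC. As with ETV4, hESC was highest and low Wnt + TGFB overlapped high Wnt + TGFB. SPRY4 rose 13.2-fold with dose (log2 3.72 ± 0.229, edgeR adjusted p = 9.67e-10) and 12.4-fold with SB4 at both doses, while with TGFB at both doses its log2 fold change was -0.03 (95% interval -0.43 to 0.38, adjusted p = 0.921). SPRY1 (chromosome 4, 123396795 to 123403760, plus strand) had 71.0 and 67.5 CPM in high Wnt + TGFB, 54.2 and 60.3 CPM in high Wnt + SB4, 48.6 and 59.3 CPM in high Wnt, 9.74 and 13.2 in low Wnt + TGFB, 3.11 and 2.83 CPM in low Wnt + SB4, 6.70 and 6.70 CPM in low Wnt, and 30.0 and 27.6 CPM in hESC. No low Wnt library of any kind reached the hESC level, and no high Wnt library came down to it. SPRY1 rose 8.06-fold with dose (log2 3.01 ± 0.156, edgeR adjusted p = 1.14e-10), 19.3-fold with SB4 and 6.01-fold with TGFB at both doses.

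DUSP6 (chromosome 12, 89347825 to 89352859, minus strand) was called in all 3 dose comparisons and with neither additive. It had 617 and 640 CPM in high Wnt + TGFB, 816 and 753 CPM in high Wnt + SB4, 717 and 660 CPM in high Wnt, 91.5 and 133 in low Wnt + TGFB, 106 and 109 CPM in low Wnt + SB4, 93.2 and 125 CPM in low Wnt, and 170 and 182 CPM in hESC. The lowest high Wnt library was above the highest library of any other kind, and the 3 low Wnt groups overlapped. DUSP6 was 6.32-fold higher in high Wnt than in low Wnt (log2 2.66 ± 0.155, edgeR adjusted p = 4.79e-10), 7.30-fold with SB4 and 5.59-fold with TGFB at both doses. Per kilobase of exon it was the most abundant of the 10 genes in every group but hESC, with means of 185 to 231 CPM per kb in the high Wnt groups, 31.7 to 33.1 CPM per kb in the low Wnt groups and 51.8 CPM per kb in hESC, where ETV4 had 85.6 CPM per kb.

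SPRED1 and SPRED2, which bring the RAS-inactivating protein neurofibromin to the membrane, varied least. SPRED2 (chromosome 2, 65310851 to 65432522, minus strand) ran from 76.2 to 92.6 CPM over the 6 high Wnt libraries, from 39.1 to 45.9 CPM over the 6 low Wnt libraries, and was at 31.0 and 27.1 CPM in hESC. These ranges do not overlap. SPRED2 rose 2.30-fold with dose (log2 1.20 ± 0.109, edgeR adjusted p = 1.31e-07), 1.90-fold with SB4 and 1.78-fold with TGFB at both doses. SPRED1 (chromosome 15, 38252851 to 38357249, plus strand) spanned 90.8 to 104 CPM over the high Wnt libraries, 76.7 to 113 CPM over the low Wnt libraries, and was at 81.7 and 66.6 CPM in hESC. High Wnt and low Wnt differed by a log2 fold change of 0.14 (95% interval -0.08 to 0.36, edgeR adjusted p = 0.301). Its log2 fold change was 0.30 with SB4 at both doses (edgeR adjusted p = 0.0395) and -0.27 with TGFB at both doses (edgeR adjusted p = 0.0449). Both SPRED1 calls were near the threshold: without each of the 4 libraries compared in turn the adjusted p was 0.0601 to 0.263 with SB4 and 0.0813 to 0.142 with TGFB, and leaving out some libraries of other groups ended them too.

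PHLDA1 (chromosome 12, 76025447 to 76031776, minus strand), a pleckstrin homology-like protein whose transcription ERK signaling can induce, ran against the others. It had 40.3 and 39.3 CPM in high Wnt + TGFB, 13.6 and 12.2 CPM in high Wnt + SB4, 12.8 and 12 CPM in high Wnt, 66.7 and 75.5 in low Wnt + TGFB, 4.88 and 6.29 CPM in low Wnt + SB4, 18 and 19.9 CPM in low Wnt, and 72.6 and 67.5 CPM in hESC. High Wnt lay below low Wnt here, and the groups given TGFB were the highest at each dose. PHLDA1 fell 1.53-fold with dose (log2 fold change -0.62 ± 0.138, edgeR adjusted p = 0.0019) and fell 1.79-fold with TGFB at both doses, but rose 2.29-fold with SB4 at both doses.

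**Figure D2:**
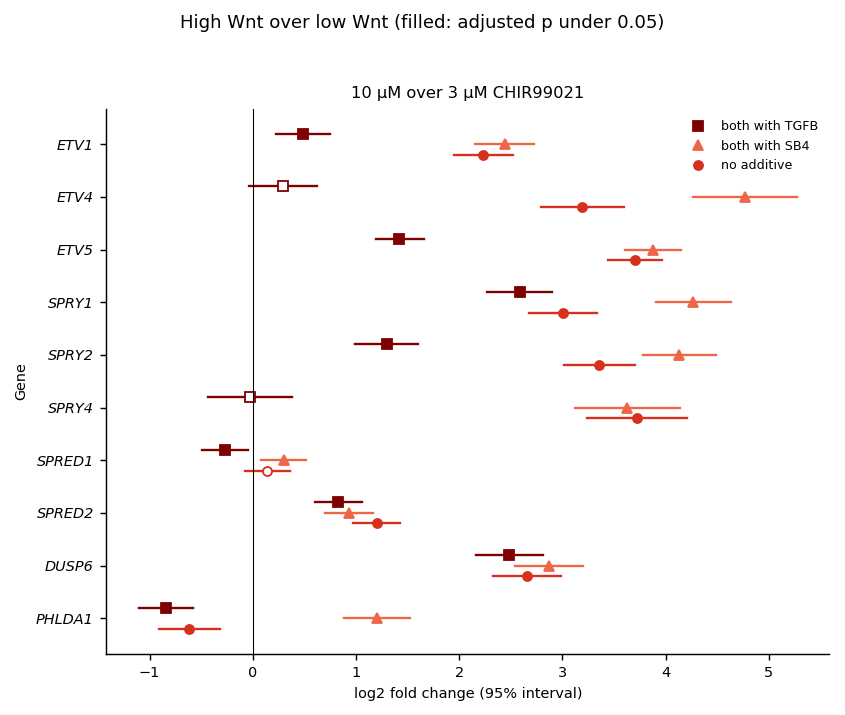
Log2 fold change of high Wnt over low Wnt (horizontal axis) for each gene, with TGFB in both groups (squares), SB4 in both groups (triangles) or no additive (circles); bars are 95% intervals from the fit of 14 libraries and filled symbols are called. The 3 symbols of DUSP6 lie close together between 2.48 and 2.87, whereas those of ETV4 run from 0.29 to 4.77 and those of SPRY4 from -0.03 to 3.72.

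TGF-beta 1 raised most of these genes at the low dose of CHIR99021 and, at the high dose, PHLDA1 alone among them. In low Wnt + TGFB 7 of 10 were higher than in low Wnt, none was lower, and SPRED1, SPRED2 and DUSP6 were not called, against 26.0% of all genes called and 13.7% higher. The median log2 fold change was 1.53 for the 10 genes and -0.01 for all genes tested. SPRY4 rose 7.87-fold (log2 2.98 ± 0.230, edgeR adjusted p = 6.97e-08) and ETV4 7.46-fold (2.90 ± 0.191, adjusted p = 1.37e-08), into or close to the range of the libraries of the 3 high Wnt groups. PHLDA1 rose 3.75-fold, ETV1 3.20-fold, SPRY2 2.93-fold, ETV5 2.83-fold and SPRY1 1.72-fold. The SPRY1 call was lost without low Wnt + TGFB replicate 2 (log2 0.54, edgeR adjusted p = 0.0688, against 0.78 with it). For DUSP6 the log2 fold change was 0.05 with a 95% interval of -0.27 to 0.36. For SPRED1 it was 0.26 (edgeR adjusted p = 0.0818), which passed without the hESC libraries (adjusted p = 0.0263), and for SPRED2 0.12 (adjusted p = 0.48).

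Stem cell, endoderm, neural plate and crest markers moved with TGFB at the low dose. All 4 stem cell markers (POU5F1, NANOG, TDGF1 and DPPA4) were higher in low Wnt + TGFB than in low Wnt, with sums of 655 and 690 CPM in low Wnt + TGFB, 277 and 301 CPM in low Wnt and 2191 and 2162 CPM in hESC. Both endoderm markers, SOX17 and FOXA2, were also higher, summing to 27.3 and 58.0 CPM in low Wnt + TGFB replicates 1 and 2 and to 1.16 and 1.38 CPM in low Wnt. Replicate 2, the library with the higher sum, also had the higher level of 7 of the 10 genes in that group, all but ETV1, SPRED1 and SPRED2. Of the neural plate markers OTX2 was higher, at 168 and 170 CPM in low Wnt + TGFB against 16.5 and 20.5 CPM in low Wnt, while SOX1, at 38.3 and 41.7 CPM against 177 and 176 CPM, and PAX6 were lower. OTX2 was also present in the uninduced cells, averaging 35.4 CPM in hESC. Of 6 crest markers FOXD3, TFAP2A and PAX3 were higher and 3 were not called, with sums of 64.2 and 68.8 CPM in low Wnt + TGFB against 38.2 and 35.3 CPM in low Wnt. ETV4 and SPRY4, which rose most, were also those with the highest hESC levels relative to low Wnt. The part of these markers in the TGFB differences was not tested.

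In high Wnt + TGFB against high Wnt, 1 of the 10 genes was higher, 3 were lower and 6 were not called (7.25% of all genes called, 3.75% higher and 3.49% lower). Only PHLDA1 was called at a log2 fold change of at least 1 (2.65% of all genes). PHLDA1 rose 3.22-fold (log2 1.69 ± 0.135, edgeR adjusted p = 1.03e-06). ETV5 fell 1.71-fold (log2 fold change -0.78 ± 0.105, edgeR adjusted p = 0.000171). SPRY4 fell 1.71-fold as well (adjusted p = 0.0178), a call that was lost without high Wnt replicate 2 (adjusted p = 0.12) or high Wnt + TGFB replicate 1 (adjusted p = 0.19). SPRY2 fell 1.43-fold (adjusted p = 0.034), a call lost when any of the 4 libraries compared was left out (adjusted p 0.0828 to 0.27), without low Wnt + SB4 replicate 2 (0.0549) and with library totals in place of TMM factors (0.0731). ETV4 stood at a log2 fold change of -0.01 (95% interval -0.33 to 0.32) and ETV1 at -0.07 (-0.33 to 0.19). At this dose no stem cell or endoderm marker was called, and the tailbud and somite markers summed to 253 and 228 CPM in high Wnt + TGFB against 102 and 91.0 CPM in high Wnt, with MEOX1 called higher; its part in the falls was not tested.

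The difference between the TGFB effects at the 2 doses was itself tested. It was called for 5 of the 10 genes, all with a lower effect at the high dose (11.8% of all genes called, 6.06% lower). The difference of log2 fold changes, high Wnt minus low Wnt, was -3.75 ± 0.299 for SPRY4 (edgeR adjusted p = 3.73e-07), -2.91 ± 0.248 for ETV4, -2.28 ± 0.165 for ETV5, -2.06 ± 0.213 for SPRY2 and -1.75 ± 0.184 for ETV1. PHLDA1, which rose at both doses, had a difference of -0.22 (95% interval -0.61 to 0.17), and for SPRY1 it was -0.42 (-0.87 to 0.02). The SPRED1 difference of -0.41 was not called (edgeR adjusted p = 0.0843) but was without the hESC libraries (adjusted p = 0.0272). The difference for DUSP6 was -0.18 (-0.62 to 0.26).

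**Figure D3:**
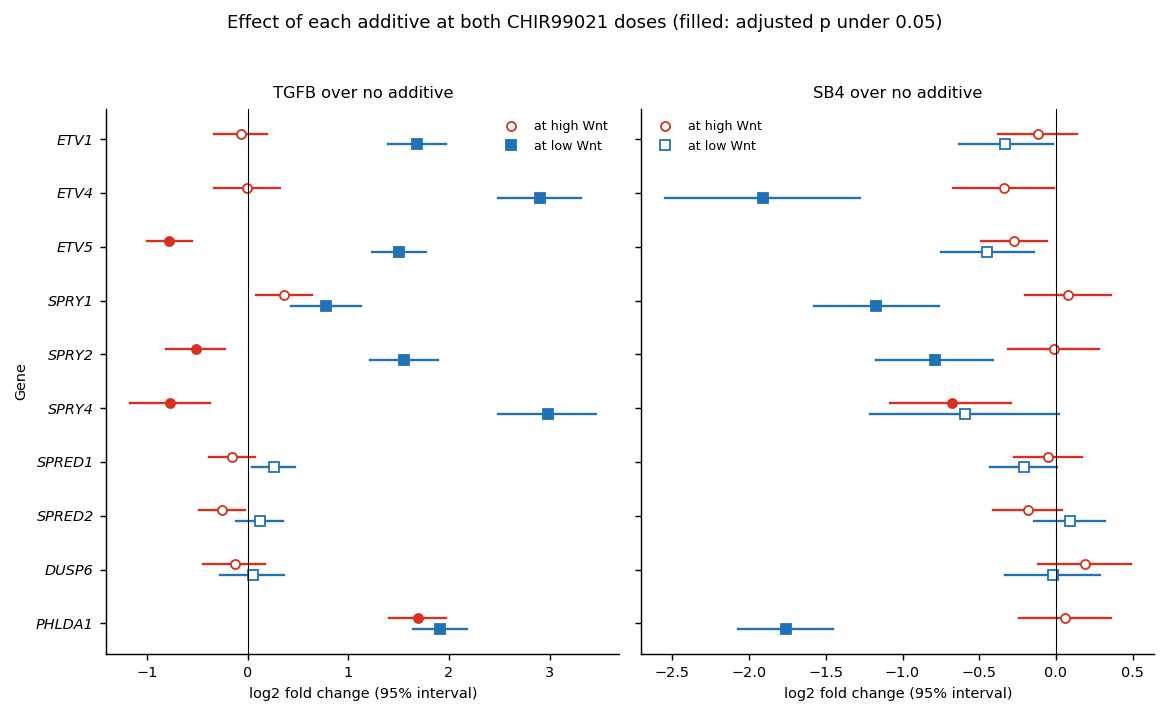
Log2 fold change of TGFB (left) and SB4 (right) over no additive, for each gene at high Wnt (circles) and low Wnt (squares); bars are 95% intervals and filled symbols are called. On the left the squares of ETV1, ETV4, ETV5, SPRY2 and SPRY4 stand well to the right of their circles, while both PHLDA1 symbols are near 1.69 and 1.91; on the right the filled squares are ETV4, SPRY1, SPRY2 and PHLDA1.

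SB431542 went with lower levels of 4 of these genes at the low dose and of 1 at the high dose. In low Wnt + SB4, 4 of the 10 were lower than in low Wnt and none was higher (11.2% of all genes called, 6.39% lower), with a median log2 fold change of -0.52, against 0 over all genes tested. ETV4 fell 3.77-fold (log2 fold change -1.91 ± 0.300, edgeR adjusted p = 0.000436). With each library left out its log2 fold change ran from -2.60, without low Wnt + SB4 replicate 1, to -1.40. PHLDA1 fell 3.38-fold (-1.76 ± 0.146, adjusted p = 6.22e-07) and SPRY1 fell 2.26-fold (-1.17 ± 0.194, adjusted p = 0.000704). SPRY2 fell 1.73-fold (adjusted p = 0.00785), a call lost without low Wnt replicate 2 (adjusted p = 0.112) and without low Wnt + SB4 replicate 1 (0.0529) or replicate 2 (0.0726). ETV5 had a log2 fold change of -0.45 (edgeR adjusted p = 0.0557) and passed under some settings, such as RLE scaling (adjusted p = 0.0495). SPRY4 stood at -0.59 (95% interval -1.21 to 0.02, adjusted p = 0.225) and passed with no filter on low counts (0.036). DUSP6 stood at -0.02 (-0.33 to 0.29). All 4 stem cell markers were also lower in low Wnt + SB4, summing to 160 and 168 CPM against 277 and 301 CPM in low Wnt, and TDGF1, the co-receptor of nodal, averaged 0.344 CPM in low Wnt + SB4 and 13.7 CPM in low Wnt. All 3 neural plate markers were called, with OTX2 lower, at 0.670 and 0.262 CPM in low Wnt + SB4 against 16.5 and 20.5 CPM in low Wnt, and with PAX6 (log2 fold change 1.38 ± 0.166) and SOX1 higher. Of the crest markers PAX3 and SNAI2 were higher and SOX10 was lower. The part of these markers in the falls was not tested.

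In high Wnt + SB4 against high Wnt only SPRY4 was called, with a 1.61-fold fall (log2 fold change -0.68 ± 0.186, edgeR adjusted p = 0.0148), while 21.5% of all genes were called and 11.6% were lower. At a log2 fold change of at least 1 it was 0 of the 10 genes, against 5.96% of all. The SPRY4 libraries of high Wnt + SB4 differed among themselves, at 30.1 and 50.5 CPM. Without replicate 1, the lower of them, the log2 fold change was -0.37 (adjusted p = 0.184), without high Wnt replicate 2 the adjusted p was 0.0879, and with only these groups in the fit it was 0.0547, while ETV4 passed in that fit (-0.34, 0.0476). The neural plate markers SOX1 and PAX6 were higher here, the list summing to 73.8 and 92.2 CPM in high Wnt + SB4 against 7.23 and 8.53 CPM in high Wnt, and 2 of the 3 tailbud and somite markers tested were lower; their part was not tested. Without the hESC libraries ETV5 was called as well (-0.28, adjusted p = 0.0428). The SB4 effect differed between doses for 3 genes, all less negative at the high dose (6.07% of all genes called, 2.71% higher). PHLDA1 had a difference of 1.82 ± 0.204 (edgeR adjusted p = 2.84e-05), ETV4 of 1.57 ± 0.342 (adjusted p = 0.00907) and SPRY1 of 1.26 ± 0.235 (adjusted p = 0.00307). The ETV4 difference was 2.26 without low Wnt + SB4 replicate 1 and was not called without low Wnt + SB4 replicate 2 (1.05, adjusted p = 0.124) or low Wnt replicate 2 (1.42, adjusted p = 0.0546). For SPRY2 the difference was 0.78 (adjusted p = 0.0529), and DESeq2 called it (adjusted p = 0.0196).

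Against uninduced stem cells the 2 doses diverged. In high Wnt all 10 genes were called, 6 of them higher and 4 lower than in hESC (72.4% of all genes called, 36.3% higher and 36.1% lower). In low Wnt all 10 were called too, but SPRED1 and SPRED2 were higher and the other 8 lower (71.4% called, 35.8% higher and 35.6% lower). Calls were this common among all genes, so the sizes are given; a log2 fold change of at least 1 was reached by 6 of the 10 called genes in high Wnt against hESC and by 43.2% of all genes. ETV4 was 6.67-fold lower in high Wnt and 61.1-fold lower in low Wnt than in hESC (log2 fold changes -2.74 ± 0.154 and -5.93 ± 0.191). SPRY4 was 2.83-fold lower in high Wnt and 37.3-fold lower in low Wnt, and ETV1 was 1.38-fold and 6.49-fold lower. These genes, then, stayed under the stem cell level at both doses. By contrast ETV5 was 1.85-fold higher in high Wnt and 7.04-fold lower in low Wnt than in hESC. SPRY2 was 3.12-fold higher in high Wnt and 3.28-fold lower in low Wnt, and SPRY1 was 1.87-fold higher and 4.30-fold lower. DUSP6 was 3.92-fold higher in high Wnt (edgeR adjusted p = 5.08e-09) and 1.61-fold lower in low Wnt (adjusted p = 0.000551). PHLDA1 was lower in both, 5.66-fold in high Wnt and 3.69-fold in low Wnt, and SPRED2 was higher in both, 3.16-fold in high Wnt and 1.37-fold in low Wnt. The SPRED1 difference between low Wnt and hESC (log2 0.33, edgeR adjusted p = 0.00999) was lost without low Wnt replicate 1 (0.0807) or hESC replicate 2 (0.101).

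For several of these genes low Wnt + TGFB was nearer to the stem cells than low Wnt was. That was not particular to them. Over all genes tested, the median absolute log2 fold change against hESC was 0.849 for low Wnt and 0.657 for low Wnt + TGFB. Against hESC, 6 of the 10 were lower, 2 were higher, and SPRY2 and PHLDA1 were not called (63.1% of all genes called, 31.4% higher and 31.8% lower), and 5 of the 10 reached a log2 fold change of at least 1 (29.5% of all genes). PHLDA1 differed from hESC by a log2 fold change of 0.02 (95% interval -0.23 to 0.27) and SPRY2 by -0.17 (-0.48 to 0.15), and SPRY2 was called lower without low Wnt + TGFB replicate 2 (-0.47, edgeR adjusted p = 0.0123). ETV4 remained 8.19-fold below hESC and SPRY4 4.74-fold. DUSP6 was 1.56-fold lower than in hESC, a call lost without low Wnt + TGFB replicate 1 (adjusted p = 0.0501). Scaling by library totals alone shifted the median of all genes in this comparison by 0.17 on the log2 scale, more than in any other.

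Across the 7 groups, 8 of the 10 genes had their lowest mean in low Wnt + SB4, all but SPRED1 and SPRED2, which were lowest in hESC. The low Wnt + SB4 mean differed from the next one up for ETV4, SPRY1, SPRY2 and PHLDA1. It did not for ETV1 (edgeR adjusted p = 0.177), ETV5 (0.0557), SPRY4 (0.225) and DUSP6 (0.962). How many of all genes tested were lowest in that group was not counted. The ratio of highest to lowest group mean was 226 for ETV4, 56.6 for SPRY4, 23.3 for SPRY1, 17.8 for ETV5, 17.7 for SPRY2, 12.7 for PHLDA1, 8.16 for ETV1, 7.30 for DUSP6, 3.17 for SPRED2 and 1.50 for SPRED1. Over all pairs of groups 162 of 210 tests on the 10 genes were called, where the share of all genes called per pair ran from 7.25% to 72.4% with a median of 43.0%. SPRY2 and PHLDA1 differed in 19 of 21 pairs and SPRED1 in 9. With the 7 groups of each gene set in order of their means, neighbours differed beyond their spread in 28 of 60 steps. The same share over all genes tested was not computed, so this count only describes the 10 genes. ETV4 fell into hESC, then a set of high Wnt, high Wnt + TGFB, low Wnt + TGFB and high Wnt + SB4 whose neighbours did not differ (adjusted p 0.139 to 0.999), then low Wnt and last low Wnt + SB4. The SPRY4 order ran from hESC to high Wnt, then high Wnt + SB4, low Wnt + TGFB and high Wnt + TGFB without a difference between neighbours, and last low Wnt and low Wnt + SB4, which did not differ (adjusted p = 0.225). For ETV5 the order was high Wnt and high Wnt + SB4 (not different, adjusted p = 0.0694), high Wnt + TGFB and hESC (not different, adjusted p = 0.359), low Wnt + TGFB, and last low Wnt and low Wnt + SB4. DUSP6 had only 2 steps, at high Wnt + TGFB over hESC and at hESC over low Wnt + TGFB. No neighbouring groups differed for SPRED1.

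Each family changed in make-up as well as in level. Per kilobase of exon, the summed ETV level was 34.3 CPM per kb in high Wnt + TGFB, 36.8 in high Wnt + SB4, 44.0 in high Wnt, 21.5 in low Wnt + TGFB, 3.18 in low Wnt + SB4, 5.04 in low Wnt and 110 in hESC. ETV4 made up 29.2% ± 0.990 of it in high Wnt, 27.7% ± 0.141 in low Wnt and 77.6% ± 3.04 in hESC (SD, n = 2 each), so that the libraries of induced and uninduced cells did not overlap. ETV5 was the leading member in high Wnt with 49.7%, and ETV1 in low Wnt with 38.8% ± 2.90. In low Wnt + TGFB the leading member was ETV4 with 48.3% ± 4.95. The summed SPRY level was 78.8 CPM per kb in high Wnt + TGFB, 95.8 in high Wnt + SB4, 99.6 in high Wnt, 30.8 in low Wnt + TGFB, 5.53 in low Wnt + SB4, 9.94 in low Wnt and 65.2 in hESC. SPRY2 held 62.4% to 72.8% of it in every induced group and 34.6% ± 0.778 in hESC, where SPRY4 held 50.9% ± 0.141. SPRY4 held 22.8% ± 1.06 in low Wnt + TGFB and 7.52% to 11.8% in the other induced groups. Length was taken as all exons of the gene, so a change of transcript ends would alter these shares.

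**Figure D4:**
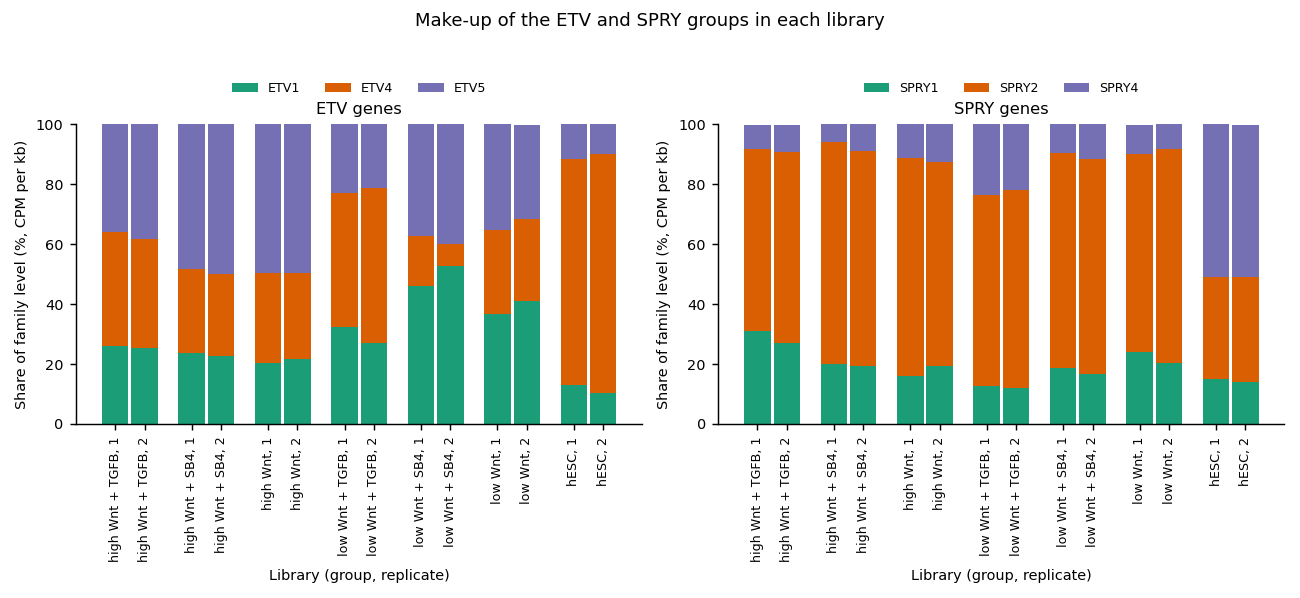
Share of the summed ETV level (left) and SPRY level (right) in CPM per kb taken by each gene, 1 bar per library, with bars stacked to 100%. ETV4 and SPRY4 take 77.6% and 50.9% of their families in hESC, and ETV5 and SPRY2 lead in high Wnt with 49.7% and 70.5%.

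Over the 7 group means of log2 CPM the genes formed patterns rather than a common profile. The Pearson correlation, given as a description over 7 points that share libraries and scaling, was 0.98 between ETV4 and SPRY4, 0.97 between ETV1 and SPRY4, 0.97 between ETV5 and SPRY2 and 0.97 between SPRY1 and SPRY2. It was 0.90 between DUSP6 and SPRY1 or SPRY2, but 0.42 between DUSP6 and ETV4 and -0.14 between DUSP6 and PHLDA1. Of 11565 other genes with at least 10 CPM in their highest group, those most like ETV4 by this measure were IFITM1, FGF19, GRIN2D, FBLIM1 and SPIN1 (all 0.98 to 0.99). WFDC2, PREP, FGF19, TXNDC12 and ANKH were most like SPRY4 (0.98 to 0.99). For ETV5 they were STEAP2, CADPS, LDB2, NR5A2 and DGKE (0.98 to 0.99), and for DUSP6 they included SLIT2, PRICKLE1, ACSL4 and ART5 (all 0.99). By Spearman's rho over the 14 libraries the order changed, and of these genes STEAP2, at rank 4, and DGKE, at rank 3, were the nearest to the top, both for ETV5.

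Most FGF ligand genes tested were higher at 10 µM. Of 14 tested, out of 18 in the list, 9 were higher in high Wnt than in low Wnt, 2 were lower and 3 were not called, where 19.4% of all genes were higher and 19.1% lower. FGF8, a ligand of the tail end of the embryo and of other signaling centres, had 41.2 and 32.6 CPM in high Wnt + TGFB, 64.9 and 41.2 CPM in high Wnt + SB4, 97.1 and 60.6 CPM in high Wnt, at most 2.25 CPM in any low Wnt library, and 2.96 and 3.48 CPM in hESC. FGF17 and FGF18, of the same subfamily, were at 101 and 69.1 CPM and at 73.3 and 66.9 CPM in high Wnt, against 0.487 and 0.299 CPM and 1.95 and 1.08 CPM in low Wnt. The log2 fold change with dose was 7.73 ± 0.351 for FGF17, 5.53 ± 0.235 for FGF18, 5.46 ± 0.300 for FGF8 and 1.99 ± 0.209 for FGF9. The 18 ligand genes together summed to 237 and 175 CPM per kb in high Wnt, 21.7 and 20.6 CPM per kb in low Wnt and 60.1 and 51.9 CPM per kb in hESC. FGF2, the ligand that keeps human stem cells undifferentiated, was highest in hESC at 277 and 194 CPM.

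Additives also touched the ligands. In low Wnt + TGFB, FGF19 (log2 2.67 ± 0.506), FGF17 (2.06 ± 0.539) and FGF2 (0.66 ± 0.136) were higher than in low Wnt and FGF9 was lower, 4 ligands being called higher and 2 lower of 14 (26.0% of all genes called, 13.7% higher). FGF19 rested on 10 counts over both low Wnt libraries and 62 over both low Wnt + TGFB libraries. For FGF17 these counts were 13 and 52. In high Wnt + TGFB 4 ligands were lower than in high Wnt and none was higher (7.25% of all genes called, 3.49% lower), among them FGF17 (-1.84 ± 0.216), FGF8 (-1.10 ± 0.220) and FGF2 (-0.68 ± 0.138). In high Wnt + SB4 6 were lower and none higher (21.5% of all genes called, 11.6% lower), with FGF18 at -1.61 ± 0.172 and FGF17 at -1.48 ± 0.210. Among the 10 response genes in that comparison, the 95% intervals of ETV4 (-0.67 to -0.01), ETV5 (-0.49 to -0.06) and SPRY4 (-1.08 to -0.29) lay below 0. Only SPRY4 of these was called. The intervals of the others, DUSP6, SPRY2 and SPRY1 among them, included 0. The TGFB effect differed between doses for FGF2 (-1.33 ± 0.194, edgeR adjusted p = 0.00019), FGF17 and FGF19, each lower at the high dose as for the ETV genes, and for FGF9 in the opposite direction. For FGF17 and FGF19 the low-dose side of this difference rests on the small counts given above.

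Most receptor genes tested were lower at 10 µM. Of 5 receptor genes tested, 4 were lower in high Wnt than in low Wnt and none was higher (19.1% of all genes lower). FGFR3 was at 114 and 104 CPM in high Wnt, against 1040 and 1060 CPM in low Wnt (log2 fold change -3.27 ± 0.120), and FGFR2 at 68.4 and 68.1 CPM in high Wnt, against 259 and 272 CPM in low Wnt (-1.96 ± 0.0940). FGFR1 was at 763 and 752 CPM in high Wnt, against 859 and 815 CPM in low Wnt and was not called (-0.14, edgeR adjusted p = 0.184). FGFR3 also fell with TGFB, to 273 and 308 CPM in low Wnt + TGFB (-1.85 ± 0.113 against low Wnt). In the relay from FRS2 to ERK and CIC, 14 of 22 genes were not called with dose, 3 were higher and 5 lower, a share close to the 38.5% called among all genes, and the median log2 fold change was -0.03. SHC1, an adaptor, changed by 0.80 ± 0.0890 and was also higher with TGFB and lower with SB4 at the low dose. CIC itself was lower in high Wnt by a log2 fold change of -0.50 ± 0.112 (edgeR adjusted p = 0.00195).

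Of 14 further response genes tested, 6 were higher and 5 lower in high Wnt than in low Wnt (38.5% of all genes called), with a median log2 fold change of 0.29, so the dose pattern did not extend to the whole response list. IL17RD, a membrane inhibitor of FGF receptor signaling also called Sef, had 619 and 780 CPM in high Wnt, 8.89 and 8.31 in low Wnt, and 99.2 and 96.1 CPM in hESC (log2 6.34 ± 0.191 with dose). The phosphatase genes DUSP5 (2.14 ± 0.189) and DUSP4 (2.44 ± 0.256) were higher too. FLRT3, an FGF receptor partner, had 1.41 and 2.20 CPM in high Wnt, against 46.4 and 49.3 CPM in low Wnt (-4.70 ± 0.196). The immediate early gene EGR1, a frequent readout of ERK activity, was lower in high Wnt (-1.19 ± 0.304, edgeR adjusted p = 0.00496), as was the cell cycle gene CCND1 (-0.71 ± 0.0860). EGR1 varied between the low Wnt libraries (mean 167 CPM, SD 60.6), and other early genes did not all follow it. IER2 in high Wnt averaged 117 CPM (SD 0.613), above its low Wnt mean of 75.4 CPM (SD 11.6). For FOS these means were 58.6 CPM (SD 22.6) and 48.2 CPM (SD 27), within their spread. For MYC they were 27.1 CPM (SD 2.61) and 40.8 CPM (SD 5.57). IL17RD rose to 36.3 and 43.0 CPM in low Wnt + TGFB (log2 2.21 ± 0.179) and DUSP4 to 27.9 and 38.6 CPM (2.09 ± 0.256). For both the TGFB effect was lower at the high dose, by -2.71 ± 0.230 for IL17RD and -2.45 ± 0.344 for DUSP4, as for ETV4 and SPRY4.

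**Figure D5:**
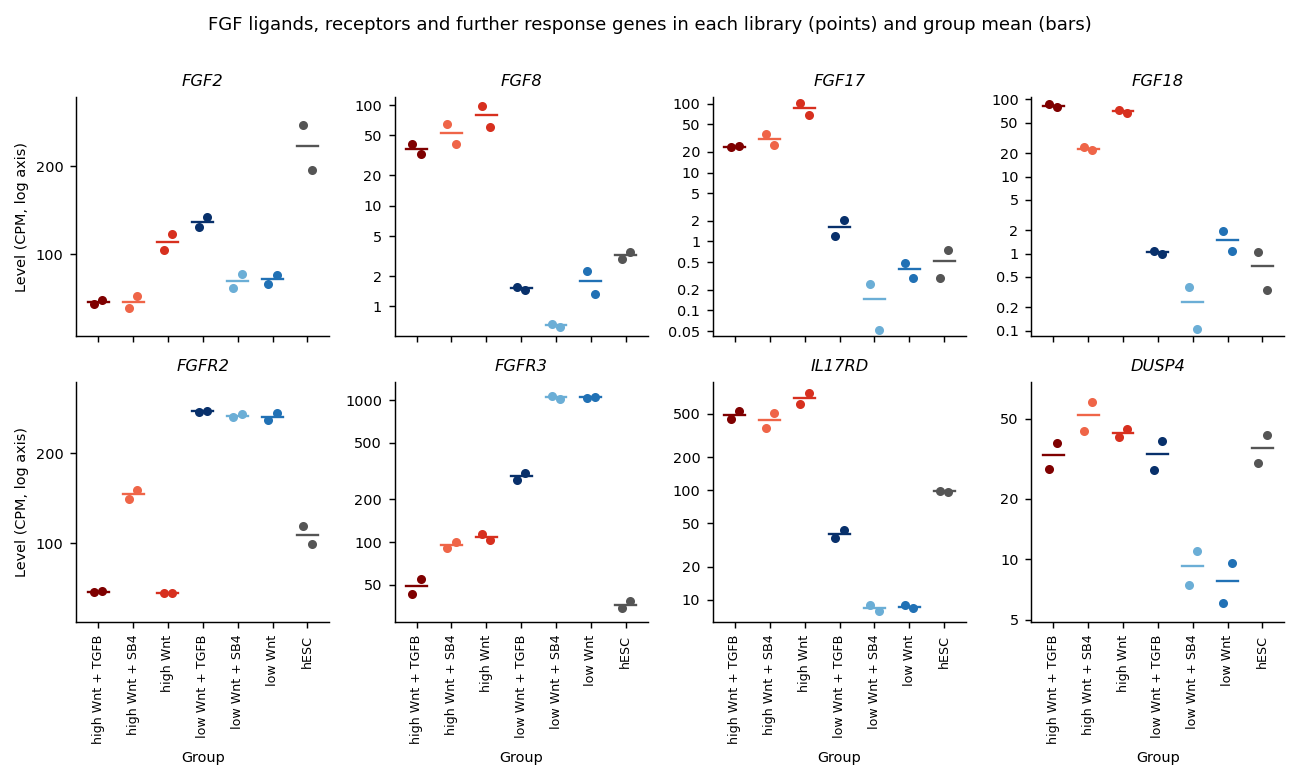
Level in CPM on a log axis with its own range per panel for 4 FGF ligand genes, 2 receptor genes and 2 further response genes; each point is 1 library and each short bar the mean of 2. FGF8, FGF17, FGF18 and IL17RD stand apart in the 3 high Wnt groups, whereas FGFR3 is at 114 CPM or less in the high Wnt groups and between 1020 and 1070 CPM in low Wnt + SB4 and low Wnt.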

How the data were processed

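Polyadenylated RNA of 14 libraries was sequenced from strand-specific libraries, per the labels' protocols. The authors deposited a table of raw counts per gene. Per the submitters' processing notes, HISAT2 2.2.0, SAMtools 1.10, featureCounts 2.0.0 and bcl2fastq were used with hg38. Per the file headers, fragments were counted over exons, reverse-stranded, without reads that map to several places or overlap several genes. The 10 genes overlap no other gene in that table on the same strand. Counts were tested with edgeR 4.0.16 in R 4.3.3 (filterByExpr by group, TMM, 1 mean per group over 14 libraries, 7 residual degrees of freedom, common biological coefficient of variation 0.101), in 12 contrasts and over 21 pairs of groups. SEs were derived from F. CPM used TMM-scaled totals, and levels per kb the deposited exon length. No replicate pair was alike within sampling noise (chi-square of 5.26 to 14.1 per degree of freedom). The script was tested on simulated data. Alternatives were DESeq2 1.42.0, RLE, library totals, no filter, only the groups compared, a replicate block, calls limited to log2 fold changes of 1 or more, no hESC libraries, and each library left out. Named genes were all 10, and of each pathway list some of the called genes with the smallest p, drawn from up to 4 per comparison. Not all of those drawn were described, EPHA2, EPHA4, KSR1 and NRAS being among those left out. EGR1, IER2, FOS, MYC, CCND1, FGFR1 and the ligands described in each group were also named, after their values were seen. The 10 genes, the lists and the motifs were chosen with earlier results of these data known. All per-library columns were used.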

Additional observations from a re-analysis of the deposited data

Results flagged for a closer look

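Of the differences between doses, 8 are given here because the test of the difference itself passed the threshold in edgeR's quasi-likelihood test. For TGFB, the log2 effect at high Wnt minus that at low Wnt was -3.75 ± 0.299 for SPRY4 (edgeR adjusted p = 3.73e-07), -2.91 ± 0.248 for ETV4 (7e-07), -2.28 ± 0.165 for ETV5 (1.7e-07), -2.06 ± 0.213 for SPRY2 (5.24e-06) and -1.75 ± 0.184 for ETV1 (6.69e-06), each ± SE. All 5 genes were above low Wnt in both low Wnt + TGFB libraries. At the high dose ETV5, SPRY2 and SPRY4 were below high Wnt in both high Wnt + TGFB libraries, so that TGFB went with opposite changes at the 2 doses, with the limits on SPRY2 and SPRY4 given beside their values. For SB4 the difference was 1.82 ± 0.204 for PHLDA1 (edgeR adjusted p = 2.84e-05), 1.57 ± 0.342 for ETV4 (0.00907) and 1.26 ± 0.235 for SPRY1 (0.00307). These 3 genes were below low Wnt in both low Wnt + SB4 libraries. No group held enough libraries for a test of outlying samples.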

How the results depend on the processing

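Over 120 gene-by-comparison values and 2490 refits of them, 2391 kept their direction and side of the threshold, 39 lost a call, 28 gained one and 32 changed sign; the cause was not tested. Asking for a log2 fold change of at least 1 left 6 called genes for high Wnt against hESC, 5 for low Wnt + TGFB against hESC, 4 for high Wnt + TGFB against low Wnt + TGFB, 0 for high Wnt + SB4 against high Wnt and 1 for high Wnt + TGFB against high Wnt, by construction. For high Wnt + SB4 against high Wnt the count was 2 with the replicate number as a block and 2 without the hESC libraries, and 0 to 2 when each library was left out. For high Wnt + TGFB against high Wnt it was 2 to 4 when each was left out. Over the 21 pairs the block gave 164 calls, against 162 without it, and in the 12 comparisons it gained 3, ETV5 with SB4 at both doses (adjusted p = 0.0408 and 0.0399) and the SB4 difference of SPRY2 (0.0256). Differences between replicate 1 and replicate 2 correlated at -0.116 to 0.206 between groups. The labels name no batch, and these correlations cannot tell whether some libraries shared one.

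Every sign change was of a value that was not called. With library totals alone SPRY2 in low Wnt + TGFB against hESC became 0.01, SPRY2 and SPRED1 in high Wnt + SB4 against high Wnt 0.05 and 0.01, and ETV4 in high Wnt + TGFB against high Wnt 0.06. PHLDA1 in low Wnt + TGFB against hESC became -0.01 with RLE and -0.01 with DESeq2. With each library left out, log2 fold changes ran from -0.47 to 0.12 for SPRY2 and from -0.07 to 0.15 for PHLDA1 in low Wnt + TGFB against hESC, and from -0.24 to 0.19 for SPRY4 in high Wnt + TGFB against low Wnt + TGFB. They ran from -0.03 to 0.20 for SPRED2 and from -0.21 to 0.21 for DUSP6 in low Wnt + SB4 against low Wnt, and from -0.25 to 0.32 for DUSP6 in low Wnt + TGFB against low Wnt. In high Wnt + SB4 against high Wnt they ran from -0.05 to 0.23 for SPRY1, from -0.08 to 0.04 for SPRY2 and from -0.03 to 0.13 for PHLDA1, and in high Wnt + TGFB against high Wnt from -0.03 to 0.03 for ETV4. The SB4 difference between doses ran from -0.04 to 0.41 for ETV1, from -0.52 to 0.22 for SPRY4 and from -0.02 to 0.40 for DUSP6, and the TGFB difference from -0.44 to 0.12 for DUSP6. As TPM all 70 levels per length took other values, since the scale differs, and 9 of 11 motif shares moved with windows of 250 bases. With 2 libraries a group, the fit assumes that all groups vary alike. Depth limits ETV4 most, at 24 and 12 counts in low Wnt + SB4.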

Other observations

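Values of the remaining SPRED and SPRY genes, and of the RAS regulator that SPRED proteins recruit, are given here; these genes were picked after their values were seen. SPRED3 was at 9.14 and 9.08 CPM in high Wnt and at 4.75 and 3.53 CPM in low Wnt (log2 fold change 1.14 ± 0.220 SE, edgeR adjusted p = 0.000555). SPRY3 had 4 counts at most in any library, so no difference was detectable at this depth. NF1, which encodes neurofibromin, was at 200 and 251 CPM in high Wnt and 193 and 182 CPM in low Wnt, against 47.4 and 35.7 CPM in hESC. It was higher than in hESC at both doses, by a log2 fold change of 2.44 ± 0.165 in high Wnt and 2.17 ± 0.164 in low Wnt, and was not called between the doses (0.27, edgeR adjusted p = 0.185). NF1 was lower in high Wnt + SB4 than in high Wnt (-0.77 ± 0.153, edgeR adjusted p = 0.0018), and lower with TGFB at the high dose (-0.53 ± 0.153, 0.0463) and at the low dose (-0.46 ± 0.152, 0.0346).

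HRAS differed between the 2 low Wnt libraries, with 55 and 128 counts, and had 4 to 38 counts in the other 12 libraries.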
